A study of Homo sapiens with 18 samples.

Results

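The mRNAs of 79 nuclear genes of the respiratory chain and ATP synthase were followed in SW620 cells, an established human colon cancer line, after silencing of the mitochondrial protease Lonp1 and exposure to heat. The genes were chosen by symbol: NDUFA, NDUFB, NDUFC, NDUFS and NDUFV with a number and NDUFAB1 for complex I, SDHA to SDHD for complex II, symbols beginning with UQCR for complex III, COX4 to COX8 for complex IV, and symbols beginning with ATP5 for complex V. Of 26485 gene symbols in the count table, 89 matched, and 79 of them had more than 1 CPM (read count scaled to the library's total) in at least 3 of 18 libraries. These 79 members were among 12832 genes that passed the same filter and were tested together. They comprised 37 members of complex I, 4 of complex II, 9 of complex III, 12 of complex IV (NDUFA4 and COX7A2L included) and 17 of complex V. By their symbols, the 17 include ATP5S and ATP5SL, the latter now named DMAC2, neither of which is a structural subunit of ATP synthase.

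Cells had received scramble siRNA or siRNA against Lonp1 (siLonp1). Each arm was sampled unheated at 37 °C (Ctrl), directly after 1 h at 42 °C (HS), or after 1 h at 42 °C followed by 1 h back at 37 °C (HS+REC). Each of the 6 groups had 3 libraries, described by the methods as independent biological replicates. Which of the Lonp1 siRNA sequences named in the methods was used for these libraries was not given in the sources used here, so all siLonp1 results rest on 1 silencing reagent or mixture in 1 cell line.

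Oxidative phosphorylation couples the oxidation of NADH and succinate to ATP synthesis across the inner mitochondrial membrane. Complex I takes electrons from NADH and complex II from succinate, complex III passes them from ubiquinol to cytochrome c, complex IV reduces oxygen, and complex V uses the resulting proton gradient to make ATP. All but complex II also contain subunits encoded by mitochondrial DNA, which were not analysed here. The nuclear subunits are made in the cytosol and imported, and Lonp1 is known to degrade misfolded and unassembled proteins in the matrix. Several complex IV subunits exist as tissue isoforms from separate genes, and the c subunit, which forms the rotating ring of ATP synthase, is encoded by 3 genes whose mature proteins are identical.

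The silencing check came first. LONP1 stood between 215 and 225 CPM in Ctrl scramble libraries and between 19.4 and 22.5 CPM in Ctrl siLonp1 libraries. In HS the ranges were 197 to 227 CPM and 11.5 to 11.8 CPM, and in HS+REC 197 to 233 CPM and 25.6 to 28.9 CPM. The arms did not overlap in any condition. Total counts ran from 30815860 to 47279297 per library. Of 8 colon epithelial markers, 7 passed the filter (LGALS4 did not), with a summed level of 7511 to 10468 CPM. Fibroblast markers (3 of 5 passing) summed to 23.5 to 62.5 CPM, leukocyte markers (2 of 5) to 2.90 to 10.7 CPM and endothelial markers (1 of 3) to 0.653 to 1.52 CPM. With bulk RNA, fewer cells of a kind and less RNA per cell cannot be told apart.

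The promoters of 4 members on which the results below turn are shown here for their sequence, each as the 250 bases before the RefSeq transcript start in GRCh38.p14, 5′ to 3′. In the hg38 build used by the study, with GENCODE gene bounds, SDHA lies on chromosome 5 (218303 to 257082), ATP5G1 on chromosome 17 (48892765 to 48895871) and COX7B on chromosome X (77899440 to 77907376), all on the plus strand, and NDUFA5 on the minus strand of chromosome 7 (123536997 to 123557904). ATP5G1 is now named ATP5MC1. SDHA and ATP5G1 fell with siLonp1 in every condition, NDUFA5 rose in every condition, and COX7B had the only called interaction of silencing and heat. Capitals mark the palindromic NRF1 motif in SDHA, CCAAT in ATP5G1, GGGCGG, an SP1 motif, in NDUFA5 and AANATGGC, a YY1 motif, in COX7B, on either strand.
SDHA (chr5:218070-218319, plus strand): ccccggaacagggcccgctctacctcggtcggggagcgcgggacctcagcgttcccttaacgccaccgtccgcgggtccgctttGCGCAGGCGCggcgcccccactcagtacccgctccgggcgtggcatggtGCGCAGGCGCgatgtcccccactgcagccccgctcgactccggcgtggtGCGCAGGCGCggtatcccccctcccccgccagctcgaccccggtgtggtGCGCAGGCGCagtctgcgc
ATP5G1 (chr17:48892537-48892786, plus strand): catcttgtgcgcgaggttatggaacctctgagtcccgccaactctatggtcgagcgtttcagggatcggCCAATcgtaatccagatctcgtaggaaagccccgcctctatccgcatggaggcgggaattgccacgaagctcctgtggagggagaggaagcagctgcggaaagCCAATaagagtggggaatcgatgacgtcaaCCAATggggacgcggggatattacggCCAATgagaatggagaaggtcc
NDUFA5 (chr7:123557819-123558068, minus strand): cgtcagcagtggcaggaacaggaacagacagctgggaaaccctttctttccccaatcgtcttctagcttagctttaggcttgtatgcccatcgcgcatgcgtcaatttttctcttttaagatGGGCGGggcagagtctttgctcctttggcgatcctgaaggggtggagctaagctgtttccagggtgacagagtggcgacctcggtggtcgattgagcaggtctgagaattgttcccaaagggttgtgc
COX7B (chrX:77899218-77899467, plus strand): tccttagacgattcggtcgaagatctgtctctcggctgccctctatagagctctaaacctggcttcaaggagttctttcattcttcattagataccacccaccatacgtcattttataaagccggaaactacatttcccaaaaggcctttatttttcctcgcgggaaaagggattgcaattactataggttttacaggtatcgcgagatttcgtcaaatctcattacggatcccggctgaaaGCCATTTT
SDHA held 4 NRF1 motifs and ATP5G1 held 4 CCAAT boxes, while the other windows held 1 capitalised motif each.

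Whole windows, from 250 bases before to 50 after the start, were found for 64 of the 79 members, and both strands were searched. The YY1 motif occurred in 25 of the 64 (39.1%, against 6.58% of 35116 windows of all genes), the NRF1 motif in 15 (23.4% against 5.78%) and CCGGAAG, an ETS motif, in 20 (31.2% against 10.3%). GGGCGG occurred in 40 (62.5% against 45.0%) and CCAAT in 20 (31.2% against 34.6%). The heat shock element, 3 alternating units of GAA and TTC, occurred in 0 of the 64 and in 0.49% of all windows. These are counts of letters within the windows and carry no measurement of factor binding.

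The level of the members spanned a wide range in Ctrl scramble cells. Scaled per kilobase of canonical transcript, ATP5B, the catalytic beta subunit of ATP synthase, stood highest at 894 CPM per kb. It was followed by ATP5G2, a c subunit gene, at 553 and COX8A, a small complex IV subunit, at 364 CPM per kb. The lowest were ATP5S, known as coupling factor B and not a structural subunit, at 3.18 CPM per kb, NDUFV3, an accessory subunit of the NADH-binding module, at 4.0, and NDUFA5, a subunit of the arm that passes electrons to ubiquinone, at 6.36 CPM per kb. A long canonical transcript, such as that of NDUFA5 at 5496 bases, lowers the level per kb. Which transcript forms these cells used was not tested, which also limits the length classes below. Together the 79 members took 1.11% ± 0.036 of all counts in Ctrl scramble libraries (SD, n = 3), and between 1.01% and 1.05% as the mean of each other group.

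The 10 matching symbols that did not pass the filter were mostly tissue isoforms and pseudogenes. COX4I2, COX6A2, COX7A1 and COX7B2, isoforms known from lung, muscle or testis, had 0 counts in all 18 libraries. COX6B2 reached 5 counts and COX8C 7 counts in their highest libraries, 0.122 and 0.171 CPM. ATP5EP2, UQCRBP1, ATP5L2 and the read-through gene ATP5J2-PTCD1 had at most 10, 3, 2 and 1 counts. Their counterparts COX4I1, COX6A1, COX6B1, COX7A2, COX7B and COX8A all passed.

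Under silencing at 37 °C, 8 of 79 members rose and 9 fell at a false discovery rate (FDR) of 0.05 in edgeR's quasi-likelihood test with Benjamini-Hochberg adjustment. Among all genes tested the shares called were 26.3% raised and 22.9% lowered, so the members' shares of 10.1% and 11.4% were below both. The libraries of both arms did not overlap for 30 members, beside 63% of all genes. The members' median log2 change was 0.00, beside 0.01 for all genes tested. The calls split within complexes: complex I had 4 raised and 6 lowered of 37, complex V 2 and 2 of 17, complex IV 2 raised of 12, complex II 1 lowered of 4 and complex III none of 9. With GC content and length trends removed per library, 25 were raised and 11 lowered, where all genes had 31.7% raised and 28.2% lowered. The balance depended on scaling, since with library size alone 3 members were raised and 18 lowered, while all genes then had 19.6% raised and 30.5% lowered.

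In HS, 34 of 79 members were raised and 4 lowered by siLonp1, where 28.1% of all genes were raised and 26.7% lowered. The members' median was 0.16 on the log2 scale, beside 0.00 for all genes. In HS+REC, 21 were raised and 5 lowered, where 26.8% of all genes were raised and 27.3% lowered, with a median of 0.09. With library size alone the counts were 19 raised and 8 lowered in HS, where all genes had 20% raised and 37% lowered, and 11 raised and 9 lowered in HS+REC, where all genes had 20.7% and 34.6%. With GC content and length trends removed, they were 32 and 12 in HS, where all genes had 32% and 32.2%, and 28 and 16 in HS+REC, where all genes had 29.8% and 34.9%. With only the groups compared, siLonp1 raised 13 and lowered 18 in Ctrl (29.7% and 29.3% of all genes), 27 and 4 in HS (27.8% and 26.9%), and 18 and 4 in HS+REC (21.6% and 22%), so the number called was then equal in Ctrl and HS. The arms did not overlap for 25 members in HS and 25 in HS+REC, beside 60.7% and 52% of all genes. None of the 79 changed by more than 2-fold in any comparison here, while for siLonp1 the share of all genes past both limits was 4.17% without heat, 4.17% after HS and 4.18% after recovery. The test of the difference between conditions is given with the interaction below.

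**Figure D1:**
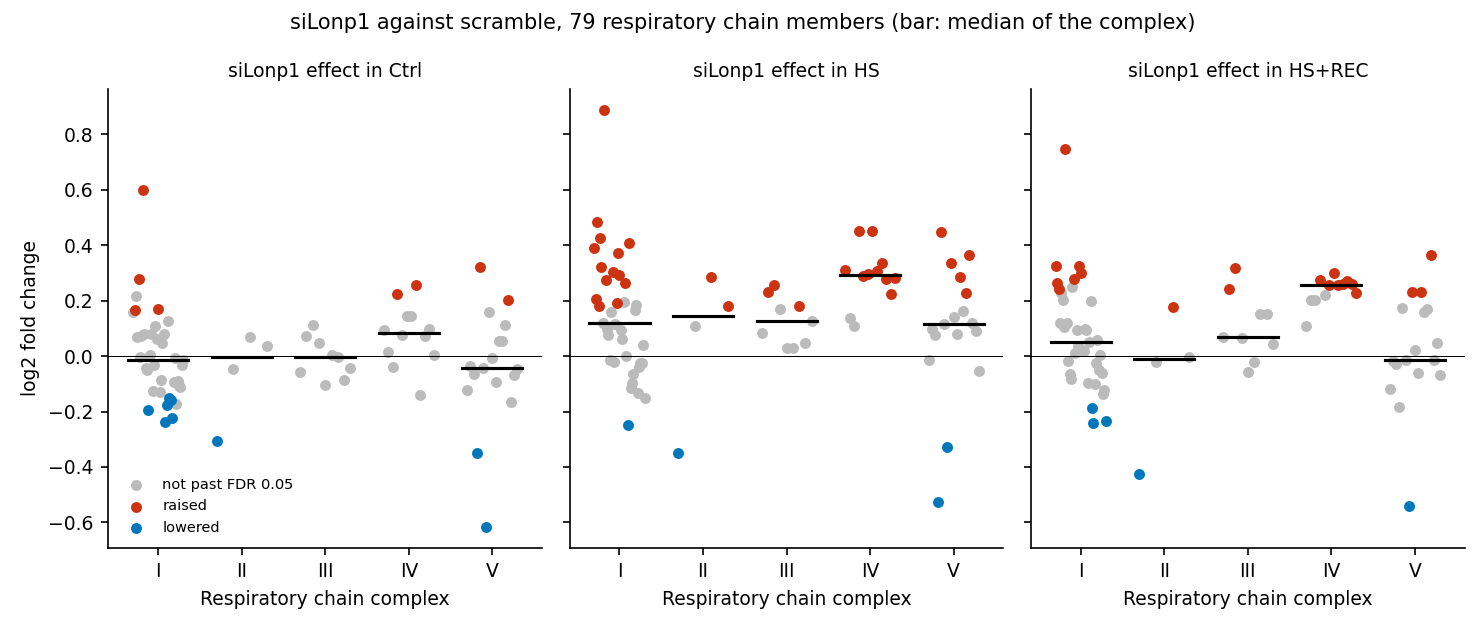
Log2 fold change of siLonp1 against scramble (vertical axis) for each of 79 members by complex (horizontal axis), in Ctrl, HS and HS+REC. Points are genes, coloured where past an FDR of 0.05, and bars are medians of each complex: in complex IV all 12 points lay above 0 in HS and in HS+REC. SDHA was the lowest member of complex II in every condition, and the lowest of complex V was ATP5G1 in Ctrl and HS+REC and ATP5D in HS.

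Complex II, which oxidises succinate in both the respiratory chain and the citric acid cycle, had 1 member that fell in all 3 conditions. SDHA, its flavoprotein, stood at 407, 406 and 406 CPM in Ctrl scramble and at 339, 327 and 321 CPM in Ctrl siLonp1. In HS it stood at 416, 407 and 411 CPM with scramble and at 318, 322 and 329 CPM with siLonp1. In HS+REC the values were 405, 374 and 405 CPM against 316, 282 and 283 CPM. All 9 siLonp1 libraries lay below all 9 scramble libraries. SDHA fell by 0.31 ± 0.053 (log2, SE) in Ctrl (adjusted p = 5.58e-05), by 0.35 ± 0.053 in HS (adjusted p = 8.96e-06) and by 0.43 ± 0.053 in HS+REC (adjusted p = 6.13e-07). SDHA has near-identical pseudogenes, and the treatment of reads shared between copies was not given in the sources used here.

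The other 3 subunits of complex II did not fall with SDHA. SDHB, the iron-sulfur protein, differed by -0.04, 0.11 and -0.02 in Ctrl, HS and HS+REC, none past the threshold, although without HS scramble replicate 3 the HS difference was 0.17 and passed (adjusted p = 0.044). SDHC, a membrane anchor, stood at 58.5, 56.4 and 62.9 CPM in HS scramble and at 78.1, 69.5 and 68.9 CPM in HS siLonp1, without overlap. SDHC rose by 0.29 ± 0.065 in HS (adjusted p = 0.000755) and by 0.18 ± 0.065 in HS+REC (adjusted p = 0.0232), with 0.07 in Ctrl (adjusted p = 0.40). The SDHC call in HS was kept in all 8 other settings, with values from 0.19 to 0.3. SDHD, the other membrane anchor, rose by 0.18 ± 0.071 in HS (adjusted p = 0.0335), where its groups overlapped, and differed by 0.04 in Ctrl and by 0.00 in HS+REC. The SDHD call was lost on leaving out HS siLonp1 replicate 1 or 3 or HS scramble replicate 1 or 2, and the SDHC call in HS+REC without HS+REC scramble replicate 1 or 3 or HS+REC siLonp1 replicate 2. Both calls were also lost with library size alone, at 0.09 and 0.11, and with only the groups compared, and the SDHD difference in HS was 0.09 with GC content and length trends removed. That correction also made calls in Ctrl, of 0.15 for SDHC (adjusted p = 0.00791) and 0.097 for SDHD (adjusted p = 0.0339).

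The c subunit genes of complex V changed in opposite directions under silencing. ATP5G1 stood at 89.95, 101 and 97.3 CPM in Ctrl scramble and at 64.5, 62.5 and 61.4 CPM in Ctrl siLonp1. In HS it stood at 72.7, 78.0 and 84.6 CPM with scramble and at 67.9, 61.7 and 57.6 CPM with siLonp1, and in HS+REC at 77.3, 74.3 and 84.4 CPM against 55.5, 51.1 and 55.5 CPM. No condition had overlap between the arms. ATP5G1 fell by 0.62 ± 0.071 in Ctrl (adjusted p = 2.28e-07), by 0.33 ± 0.071 in HS (adjusted p = 0.000461) and by 0.54 ± 0.071 in HS+REC (adjusted p = 1.21e-06). The Ctrl change was the largest decrease of any member in any siLonp1 comparison.

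ATP5G2 went the other way in 2 conditions. It stood at 307, 309 and 342 CPM in HS scramble and at 429, 390 and 389 CPM in HS siLonp1, without overlap. It rose by 0.34 ± 0.067 in HS (adjusted p = 0.000205) and by 0.23 ± 0.067 in HS+REC (adjusted p = 0.0059), where 1 siLonp1 library at 346 CPM lay below the highest scramble library at 348 CPM. The HS call was kept in all 8 other settings, with values from 0.22 to 0.35. In Ctrl the difference of 0.16 ± 0.067 missed the threshold (adjusted p = 0.054), although the groups did not overlap. It passed in 6 of 18 fits that left out 1 library and in 4 of 8 other settings: without the filter, with only the groups compared, and with GC content and length trends removed, with and without the replicate block. The HS+REC call was lost without HS+REC siLonp1 replicate 1, with a difference of 0.17 (adjusted p = 0.0548). ATP5G3 was not called in any siLonp1 comparison, with differences of -0.01, 0.14 and 0.02 in Ctrl, HS and HS+REC, but without HS scramble replicate 3 the HS difference was 0.22 and passed (adjusted p = 0.00852).

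Expressed as a share of the summed CPM of the 3 c subunit genes, ATP5G1 took 14.6% ± 0.50 in Ctrl scramble and 9.43% ± 0.044 in Ctrl siLonp1 (SD, n = 3). The shares were 13.5% ± 0.42 and 9.36% ± 0.31 in HS, and 12.9% ± 0.33 and 8.42% ± 0.22 in HS+REC. The summed level was 660 ± 26.6 CPM in Ctrl scramble and 666 ± 16 CPM in Ctrl siLonp1, which differed by less than the spread between libraries. In HS the sums were 580 ± 44 and 666 ± 43.1 CPM, and in HS+REC 607 ± 26.8 and 643 ± 45.0 CPM. The share thus moved while the Ctrl sum did not move beyond its spread. These shares are of counts and are not corrected for the different transcript lengths of the 3 genes.

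**Figure D2:**
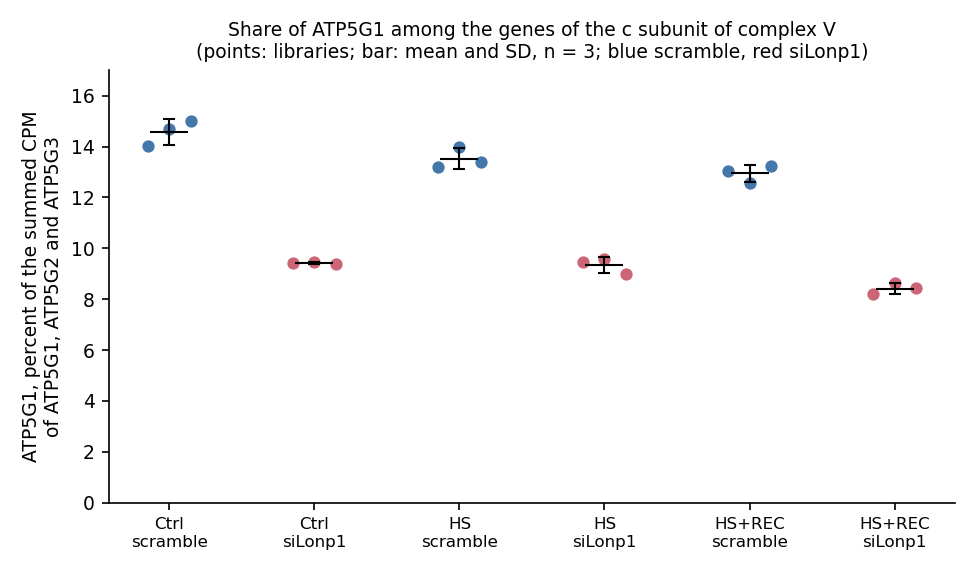
Share of ATP5G1 in the summed CPM of ATP5G1, ATP5G2 and ATP5G3 (vertical axis, percent) in each library, by group (horizontal axis), with the mean and SD of 3 libraries. Every siLonp1 library lay below every scramble library, with group means of 8.42% to 9.43% against 12.9% to 14.6%.

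Among the F1 subunits of complex V, delta and epsilon moved in opposite directions. ATP5D, the delta subunit of the central stalk, stood at 97.1, 104 and 103 CPM in Ctrl scramble and at 78.3, 80.8 and 79.5 CPM in Ctrl siLonp1. It fell by 0.35 ± 0.12 in Ctrl (adjusted p = 0.0157) and by 0.53 ± 0.12 in HS (adjusted p = 0.000562), and differed by -0.18 in HS+REC (adjusted p = 0.188). In HS+REC its scramble libraries spread from 85.6 to 126 CPM, and the difference there ran from -0.34 to 0.02 with each library left out. It was called at -0.34 without HS+REC siLonp1 replicate 1, at -0.19 without the filter and at -0.49 with GC content and length trends removed. ATP5E, the epsilon subunit of the same stalk, stood at 25.4, 26.6 and 25.1 CPM in Ctrl scramble and at 32.6, 32.4 and 31.3 CPM in Ctrl siLonp1. It rose by 0.32 ± 0.091 in Ctrl (adjusted p = 0.00534) and by 0.45 ± 0.091 in HS (adjusted p = 0.000268), with 0.17 in HS+REC (adjusted p = 0.108), where it passed at 0.26 without HS+REC siLonp1 replicate 2. ATP5E overlaps TUBB1 on the opposite strand, and the strand setting of the counting was not given in the sources used here.

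In the rest of the head and stalks of ATP synthase no call was made. The alpha subunit ATP5A1, the catalytic beta subunit ATP5B and the gamma subunit ATP5C1 were called in no siLonp1 comparison, nor were the 4 members of the peripheral stalk, which holds the head still. Of the 3 membrane members ATP5L, ATP5I and ATP5J2, all rose in HS, 2 in HS+REC and 1 in Ctrl, where 28.1%, 26.8% and 26.3% of all genes rose. ATP5L, the g subunit, which sits where ATP synthase dimers meet, rose by 0.20 ± 0.082 in Ctrl (adjusted p = 0.0453), by 0.36 ± 0.082 in HS (adjusted p = 0.000706) and by 0.36 ± 0.082 in HS+REC (adjusted p = 0.00072). The Ctrl call of ATP5L was lost with either other scaling, without any 1 of the 6 Ctrl libraries, and without HS+REC scramble replicate 2 or HS+REC siLonp1 replicate 3.

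Complex IV had the largest share of members raised in HS and HS+REC. In HS, 10 of 12 rose and none fell, with a median log2 change of 0.29, where 28.1% of all genes rose. In HS+REC, 8 of 12 rose with a median of 0.26, where 26.8% of all genes rose. In Ctrl 2 of 12 (16.7%) rose with a median of 0.08, below the 26.3% of all genes. COX6A1, a subunit whose other isoform was not detected, stood at 162, 174 and 165 CPM in Ctrl scramble and at 197, 194 and 194 CPM in Ctrl siLonp1. In HS it stood at 147, 148 and 180 CPM against 237, 205 and 205 CPM, and in HS+REC at 157, 167 and 181 CPM against 217, 190 and 204 CPM. The arms did not overlap in any condition. It rose by 0.22 ± 0.076 (adjusted p = 0.0184), 0.45 ± 0.076 (adjusted p = 3.38e-05) and 0.27 ± 0.076 (adjusted p = 0.00433) in the same order, and the Ctrl call was lost with library size alone (0.15) and without Ctrl scramble replicate 1 or 3. COX7A2L, a factor that joins complexes III and IV into supercomplexes, was the other complex IV member raised in all 3 conditions, by 0.26, 0.31 and 0.26.

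The complex IV counts rested in part on particular libraries. Without HS+REC scramble replicate 1, 2 of 12 were raised in HS+REC (median 0.19), and 10 of 79 members in all. Without HS siLonp1 replicate 1, 7 of 12 were raised in HS (median 0.21), and 20 of 79 in all. With library size alone, 7 of 12 rose in HS, 3 in HS+REC, and in Ctrl 1 rose and 1 fell, where 20%, 20.7% and 19.6% of all genes rose. With GC content and length trends removed, the counts were 6, 9 and 11 of 12 in Ctrl, HS and HS+REC, with medians of 0.13, 0.21 and 0.22, where 31.7%, 32% and 29.8% of all genes rose.

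In complex I, the largest change of all members was that of NDUFA5. It stood at 37.2, 34.0 and 33.8 CPM in Ctrl scramble and at 50.4, 52.4 and 56.3 CPM in Ctrl siLonp1. In HS it stood at 25.9, 25.3 and 31.8 CPM against 52.6, 47.8 and 52.9 CPM, and in HS+REC at 30.0, 36.9 and 31.5 CPM against 52.8, 57.7 and 54.3 CPM. Every siLonp1 library lay above every scramble library. NDUFA5 rose by 0.60 ± 0.084 in Ctrl (adjusted p = 3.62e-06), 0.89 ± 0.086 in HS (adjusted p = 1.45e-08) and 0.75 ± 0.084 in HS+REC (adjusted p = 1.34e-07).

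The 7 core subunits of complex I encoded in the nucleus, which carry the redox centres, are given apart from the 30 supernumerary subunits, which surround them. Of the core subunits none rose in any of the 3 conditions, while 3 fell in Ctrl and 2 in HS+REC, with 0 in HS and medians of -0.11, -0.04 and -0.12. NDUFS1, which holds iron-sulfur clusters, stood at 191, 188 and 188 CPM in Ctrl scramble and at 171, 163 and 178 CPM in Ctrl siLonp1, without overlap, and fell by 0.15 in Ctrl and by 0.19 in HS+REC (adjusted p = 0.0284 and 0.00654). Its Ctrl call was lost without any 1 of the Ctrl scramble libraries or Ctrl siLonp1 replicate 1 or 2, without the filter, and with GC content and length trends removed. NDUFS3 fell by 0.22 in Ctrl alone among the 3 conditions, a call lost without Ctrl scramble replicate 2 or Ctrl siLonp1 replicate 1 or 2, and its transcripts overlap PTPMT1 and CELF1. Of the supernumerary subunits, 4 rose and 3 fell in Ctrl, 14 rose and 1 fell in HS, and 7 rose and 1 fell in HS+REC. All genes were raised and lowered in 26.3% and 22.9% in Ctrl, 28.1% and 26.7% in HS, and 26.8% and 27.3% in HS+REC. The 14 of 30 supernumerary subunits raised in HS (46.7%) were above that background, the 4 in Ctrl (13.3%) and 7 in HS+REC (23.3%) below it, and with 7 core subunits each call moves the share by 14.3%.

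Supernumerary subunits with larger changes in HS included NDUFA11, a membrane subunit, at 87.7, 86.3 and 105 CPM with scramble and 139, 124 and 127 CPM with siLonp1. NDUFA11 rose by 0.48 ± 0.10 in HS (adjusted p = 0.000376). NDUFA13, also known as GRIM-19, rose by 0.28 ± 0.10 in Ctrl and 0.43 ± 0.10 in HS (adjusted p = 0.0307 and 0.0014), and its annotation overlaps YJEFN3. Its Ctrl call did not hold on leaving out Ctrl siLonp1 replicate 1 or 2, or Ctrl scramble replicate 1 or 3, or with library size alone (0.20). NDUFB3 stood at 31.3, 31.4 and 37.8 CPM in HS scramble and at 46.5, 42.0 and 41.2 CPM in HS siLonp1, and rose by 0.37 in HS and 0.33 in HS+REC (adjusted p = 0.000318 and 0.00101).

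NDUFB9, a subunit of the distal membrane arm, fell by 0.24 ± 0.058 in Ctrl (adjusted p = 0.00151), with 131, 139 and 141 CPM in scramble and 120, 119 and 110 CPM in siLonp1. In HS its difference was 0.00 (adjusted p = 0.992), but -0.094 with GC content and length trends removed and a replicate block (adjusted p = 0.0366). Its annotation overlaps MTSS1 and TATDN1 on the opposite strand. NDUFC1 fell by 0.18 in Ctrl and 0.25 in HS (adjusted p = 0.0464 and 0.00569) and overlaps MGARP and NAA15. Its Ctrl call was lost in 11 of the 18 fits that left out 1 library, without the filter, and, at -0.087, with GC content and length trends removed. NDUFA9 fell by 0.19 in Ctrl (adjusted p = 0.0399), a call lost without Ctrl scramble replicate 2 or 3 or Ctrl siLonp1 replicate 1 or 2 and with GC content and length trends removed. NDUFV3 fell by 0.24 in HS+REC (adjusted p = 0.00962), a call lost without HS+REC scramble replicate 1 and with only the groups compared.

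In complex III none of the 9 members was called in Ctrl. CYC1, its haem-bearing subunit, does not match the symbols and is not among these members. CYC1 fell with siLonp1 by 0.40 in Ctrl and by 0.31 in HS (adjusted p = 0.000847 and 0.00629). In HS, UQCRB, a subunit near the ubiquinone site, UQCRH, the hinge protein, and UQCR11 rose, by 0.26, 0.18 and 0.23, and in HS+REC UQCRB and UQCR11 rose, by 0.32 and 0.24. The UQCRB and UQCR11 calls in HS were lost with library size alone and on leaving out replicate 1 of HS siLonp1 or replicate 1 or 2 of HS scramble, and the UQCRH call in 11 of the 18 fits that left out 1 library and with library size alone (0.084). The UQCR11 call in HS+REC was lost with library size alone and without HS+REC scramble replicate 1 or 2 or HS+REC siLonp1 replicate 1 or 3, and those of UQCR11 and UQCRH were lost with only the groups compared. UQCRH shares near-identical sequence with UQCRHL, so the split of reads between them is uncertain. The core proteins UQCRC1 and UQCRC2 and the Rieske protein UQCRFS1 were called in no siLonp1 comparison.

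Across the conditions, 6 members rose with siLonp1 in all 3: NDUFA5, NDUFA10, NDUFB4, COX6A1, COX7A2L and ATP5L, beside 18.1% of all genes. NDUFA10 rose by 0.17, 0.21 and 0.27 and NDUFB4 by 0.17, 0.29 and 0.30 in Ctrl, HS and HS+REC. The Ctrl call of NDUFB4 was lost in 9 of the 18 fits that left out 1 library, with either other scaling and with DESeq2. The Ctrl call of NDUFA10 was lost without Ctrl scramble replicate 2 or 3 or Ctrl siLonp1 replicate 2, and with library size alone its Ctrl and HS calls were both lost (0.093 and 0.11). SDHA and ATP5G1 fell in all 3, beside 16% of all genes. A further 15 were raised in HS and HS+REC without a call in Ctrl (3.3% of all genes), among them 6 members of complex IV. For 35 members no siLonp1 comparison gave a call, beside 27.8% of all genes.

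**Figure D3:**
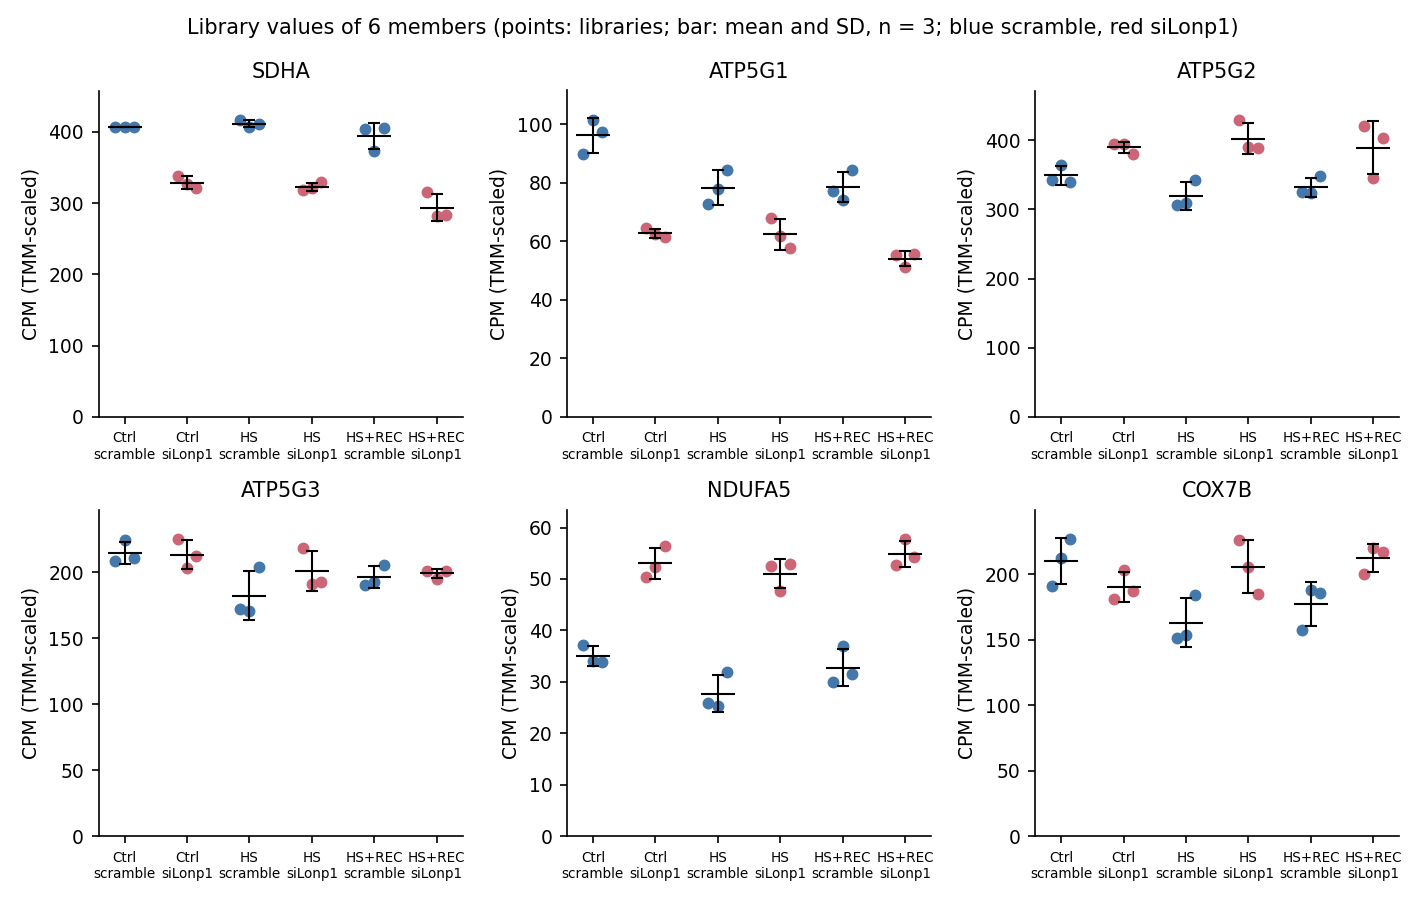
TMM-scaled CPM (vertical axes, from 0) of SDHA, ATP5G1, ATP5G2, ATP5G3, NDUFA5 and COX7B in the 18 libraries by group (horizontal axis). Points are libraries and bars the mean and SD of 3. SDHA and ATP5G1 are lower and NDUFA5 higher in siLonp1 libraries in every condition, and COX7B is lower in HS scramble, at 151 to 184 CPM, than in Ctrl scramble, at 191 to 227 CPM.

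Heat changed fewer members. In scramble cells HS raised 0 and lowered 13 of 79, where 18.6% of all genes were raised and 17.3% lowered. DESeq2 also raised 0, and 18 members had an unadjusted p under 0.05 in edgeR, in either direction. The median was -0.08, and 66 of 79 differences were below 0. In siLonp1 cells HS raised 3 and lowered 2, where 20.2% and 22.1% of all genes were called, with a median of 0.07. After recovery, 1 was raised and 6 lowered in scramble cells (21.8% and 20.5% of all genes, median -0.03), and 11 raised and 4 lowered in siLonp1 cells (24.6% and 26.6% of all genes, median 0.06). Heated and Ctrl libraries did not overlap for 13 and 18 members in HS in scramble and siLonp1 cells (50.2% and 54.2% of all genes), and for 17 and 28 in HS+REC (51.7% and 55.4%). Of all genes, 3.3% and 4.57% were past 2-fold in HS and 4.46% and 5.71% in HS+REC, beside 0 members. The scramble and siLonp1 arms have separate Ctrl libraries, but HS and HS+REC within an arm share theirs.

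The choice of scaling and fit moved these splits too. With only the groups compared, HS in siLonp1 cells raised 12 members and lowered 3, where all genes had 23.5% and 23.3%. With library size alone, HS+REC lowered 15 and raised 0 members in scramble cells, and raised 6 and lowered 13 in siLonp1 cells, while HS raised 1 and lowered 4 in siLonp1 cells. All genes were then raised and lowered in 16.3% and 30.4%, 18.8% and 34.7%, and 16.8% and 26.9%. With GC content and length trends removed, 2 members were raised and 18 lowered by HS in scramble cells, 3 and 10 by HS in siLonp1 cells, 4 and 14 by HS+REC in scramble cells, and 7 and 22 by HS+REC in siLonp1 cells. All genes were then raised and lowered in 23.3% and 24.1%, 25.4% and 27.8%, 28.6% and 24.3%, and 28.3% and 31.8%, in the same order. The medians of the members in siLonp1 cells changed sign under this correction, to -0.0084 in HS and -0.046 in HS+REC, and the HS+REC median was -0.015 with library size alone. The count of 13 lowered by HS in scramble cells became 24 without HS scramble replicate 3, 5 without HS scramble replicate 1 and 6 without HS scramble replicate 2. It was also 6 without Ctrl scramble replicate 2 and 8 without Ctrl scramble replicate 3.

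**Figure D4:**
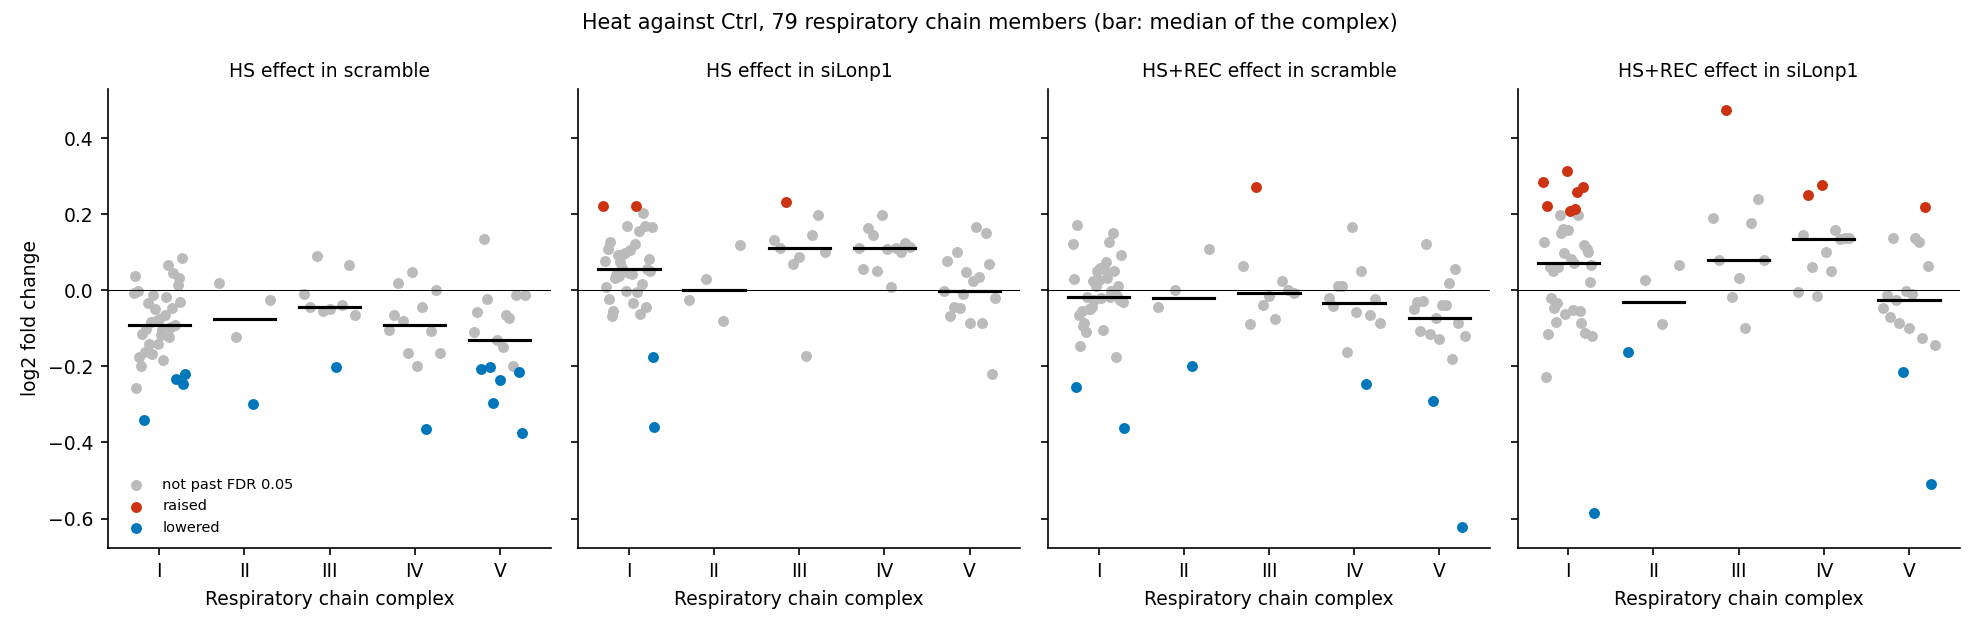
Log2 fold change against Ctrl (vertical axis) of 79 members by complex (horizontal axis), for HS and HS+REC in scramble and siLonp1 cells. Points are genes, coloured where past an FDR of 0.05, and bars are medians of each complex, which lie between -0.13 and -0.04 for HS in scramble cells.

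NDUFV3 was the 1 member lowered by heat in all 4 of these comparisons, beside 8.65% of all genes. In scramble cells it stood at 21.8, 23.6 and 23.3 CPM in Ctrl, at 19.5, 19.3 and 20.1 CPM in HS and at 19.0, 16.5 and 17.9 CPM in HS+REC. In siLonp1 cells it stood at 22.5, 24.1 and 21.4, then 17.6, 18.6 and 16.8, then 15.7, 14.2 and 15.4 CPM. In neither arm did heated libraries overlap Ctrl. It fell by 0.22 ± 0.072 in HS and by 0.36 ± 0.072 in HS+REC with scramble (adjusted p = 0.0183 and 0.000238), and by 0.36 ± 0.072 and 0.58 ± 0.073 with siLonp1 (adjusted p = 0.00029 and 4.33e-07). The call in HS scramble was lost without the filter, either Ctrl scramble replicate 2 or 3, or HS scramble replicate 1 or 2.

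ATP5S, the lowest member by level per kb, had the largest change with heat. Its libraries ran from 8.84 to 9.85 CPM in Ctrl scramble, from 6.42 to 8.53 in HS scramble and from 5.67 to 6.67 in HS+REC scramble, with no overlap with Ctrl. It fell by 0.37 ± 0.11 in HS and by 0.62 ± 0.11 in HS+REC in scramble cells (adjusted p = 0.00985 and 7.22e-05), and by 0.51 ± 0.11 in HS+REC in siLonp1 cells (adjusted p = 0.000551). In HS siLonp1 the difference was -0.22 (adjusted p = 0.117), which passed with library size alone (-0.27) and with GC content and length trends removed (-0.25). The HS scramble call was lost without HS scramble replicate 1. ATP5S overlaps CDKL1 on the opposite strand.

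In the other direction, UQCRB rose after recovery. It stood at 123, 107 and 121 CPM in Ctrl scramble and at 131, 148 and 146 CPM in HS+REC scramble. In siLonp1 cells it stood at 123, 130 and 129 CPM in Ctrl, 161, 137 and 151 CPM in HS, and 189, 171 and 169 CPM in HS+REC. Each heated group named here lay above its Ctrl. It rose by 0.27 ± 0.083 in HS+REC scramble (adjusted p = 0.0108), by 0.23 ± 0.083 in HS siLonp1 (adjusted p = 0.0266) and by 0.47 ± 0.083 in HS+REC siLonp1 (adjusted p = 4.22e-05). The scramble call was lost without Ctrl scramble replicate 2, and the HS siLonp1 call without Ctrl siLonp1 replicate 1 or 3 or HS siLonp1 replicate 1 or 3. With library size alone both calls were lost (0.19 and 0.18), and the HS siLonp1 call was also lost with GC content and length trends removed, with and without the replicate block (0.22 in each).

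The 13 members lowered by HS in scramble cells were spread over the complexes and included the membrane anchor SDHC and the c subunit genes ATP5G1 and ATP5G3. SDHC fell by 0.30 ± 0.065 (adjusted p = 0.000837), ATP5G1 by 0.30 ± 0.070 (adjusted p = 0.00192), ATP5G3 by 0.24 ± 0.068 (adjusted p = 0.00931) and NDUFA5 by 0.34 ± 0.086 (adjusted p = 0.00307). NDUFV2, an iron-sulfur subunit of the NADH module, stood at 106, 108 and 108 CPM without heat and at 87.4, 85.1 and 98.9 CPM after HS, and fell by 0.25 (adjusted p = 0.00361). NDUFS5 fell by 0.23, ATP5O by 0.22 and UQCRFS1 by 0.20, calls that were each lost, as was that of ATP5G3, without HS scramble replicate 1 or 2 or Ctrl scramble replicate 2. SDHA, SDHB, SDHD and ATP5G2 were not called, with differences of 0.02, -0.12, -0.03 and -0.13.

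In siLonp1 cells HS raised NDUFB9 by 0.22 (adjusted p = 0.00313) and NDUFA1 by 0.22 (adjusted p = 0.0373) beside UQCRB, and lowered NDUFV2 by 0.17 (adjusted p = 0.0291). No gene of complex II or of the c subunit was called there, with differences of -0.03, 0.03, -0.08 and 0.12 for SDHA, SDHB, SDHC and SDHD and of -0.01, 0.05 and -0.09 for ATP5G1, ATP5G2 and ATP5G3. SDHC was, however, called lowered there, by 0.17 (adjusted p = 0.00334), with GC content and length trends removed. HS+REC in siLonp1 cells raised NDUFB3 by 0.31 and NDUFA1 by 0.29 (adjusted p = 0.00149 and 0.00659), the latter lost, at 0.09, with GC content and length trends removed. The NDUFB3 call was kept in every alternative, but its value was as low as 0.12 in 1 of them. HS+REC lowered ATP5G1 by 0.29 in scramble cells and by 0.22 in siLonp1 cells (adjusted p = 0.00171 and 0.0147), and the siLonp1 call was lost without Ctrl siLonp1 replicate 1 or HS+REC siLonp1 replicate 2. The NDUFA1 difference in HS was 0.10 with GC content and length trends removed, past no threshold. The NDUFA1 call in HS was also lost with library size alone, without any 1 of the Ctrl siLonp1 libraries or HS siLonp1 replicate 1, and that of NDUFV2 without the filter, Ctrl siLonp1 replicate 1 or 3 or HS siLonp1 replicate 2 or 3. With all libraries kept, the NDUFV2 difference ran from -0.29 to -0.17 over the other settings. Between HS and HS+REC, 3 members rose and 0 fell in scramble cells (14.2% and 12.7% of all genes), namely NDUFC2, NDUFA5 and NDUFV2 by 0.25, 0.25 and 0.22. In siLonp1 cells 2 rose and 2 fell (16.3% and 15.6% of all genes): NDUFC1 and UQCRB rose by 0.26 and 0.24, and NDUFV3 and ATP5G1 fell by 0.23 and 0.21. The groups did not overlap for 4 and 7 members (34.7% and 40.2% of all genes), and 0 members were past 2-fold (1.9% and 2.57%). With library size alone these counts were 0 raised and 2 lowered in scramble cells and 2 and 5 in siLonp1 cells, where all genes had 10.1% and 17.8%, and 14.3% and 18.8%. With GC content and length trends removed they were 4 and 2, and 2 and 14, where all genes had 20.9% and 15.1%, and 21.3% and 22.5%. All 3 scramble calls were lost without HS scramble replicate 1 or 2 or HS+REC scramble replicate 2, and that of NDUFC2 in 10 of the 18 fits that left out 1 library. All 3 were also lost with library size alone and with only the groups compared, that of NDUFC2 with RLE factors and the replicate block too, and the NDUFV2 difference was 0.14 with GC content and length trends removed. The siLonp1 calls of UQCRB, NDUFV3 and ATP5G1 were all lost without HS siLonp1 replicate 2, and those of NDUFV3 and ATP5G1 with only the groups compared.

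The interaction term asks whether siLonp1 acted differently under heat than at 37 °C. The silencing itself was not equally deep, since LONP1 had an interaction of -0.76 ± 0.11 with HS (adjusted p = 0.000468) and of 0.43 ± 0.10 with HS+REC (adjusted p = 0.0321), and the part of this in the members' terms was not tested. For HS, 1 of 79 members was called raised and 0 lowered (0.475% and 1.39% of all genes), and 13 had an unadjusted p under 0.05. The median of the member terms was 0.15, beside 0.00 for all genes, and 74 of 79 were above 0. For HS+REC, 0 were called in either direction (0.686% and 0.896% of all genes), 4 had an unadjusted p under 0.05, and DESeq2 called 1. The larger number of members raised by siLonp1 in HS than in Ctrl was therefore not matched by calls of the difference for single members, other than COX7B. Terms past 2-fold were seen in 0 members, beside 0.14% and 0.109% of all genes for HS and HS+REC.

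COX7B, a small complex IV subunit, stood at 191, 212 and 227 CPM in Ctrl scramble and at 181, 203 and 187 CPM in Ctrl siLonp1. In HS it stood at 151, 153 and 184 CPM with scramble and at 226, 206 and 185 CPM with siLonp1, and in HS+REC at 158, 188 and 185 CPM against 200, 220 and 217 CPM. The arms overlapped in Ctrl and were separate in HS and HS+REC, in HS by less than 1 CPM. HS lowered COX7B by 0.37 ± 0.086 in scramble cells (adjusted p = 0.00182), and the difference in siLonp1 cells was 0.11 (adjusted p = 0.32). SiLonp1 lowered COX7B in Ctrl with library size alone and with only the groups compared, by 0.22 and 0.16, against -0.14 otherwise (adjusted p = 0.182). The interaction was 0.48 ± 0.12 (adjusted p = 0.0445), a call lost in 9 of the 18 fits that left out 1 library and with library size alone.

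Individual libraries stood apart within groups, for the members and for other short transcripts. The median log2 ratio of the 79 members to the Ctrl scramble mean was -0.17 and -0.16 in HS scramble replicates 1 and 2 and 0.06 in replicate 3, the library with the lowest total count. In HS siLonp1 it was 0.16 in replicate 1, beside -0.01 and 0.01 in the others. The 810 other genes with canonical transcripts under 1000 bases had medians of -0.15, -0.13 and 0.05 in HS scramble and 0.16, 0.03 and 0.02 in HS siLonp1. The 34 members of 1000 bases or more had medians of -0.17, -0.18 and 0.04 in HS scramble and 0.10, -0.04 and -0.03 in HS siLonp1, while other genes of that length stayed between -0.01 and 0.02 in all 18 libraries. These other genes make up 11601 of the 12832 genes that set the scaling, so the scaling itself holds their median near 0.

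**Figure D5:**
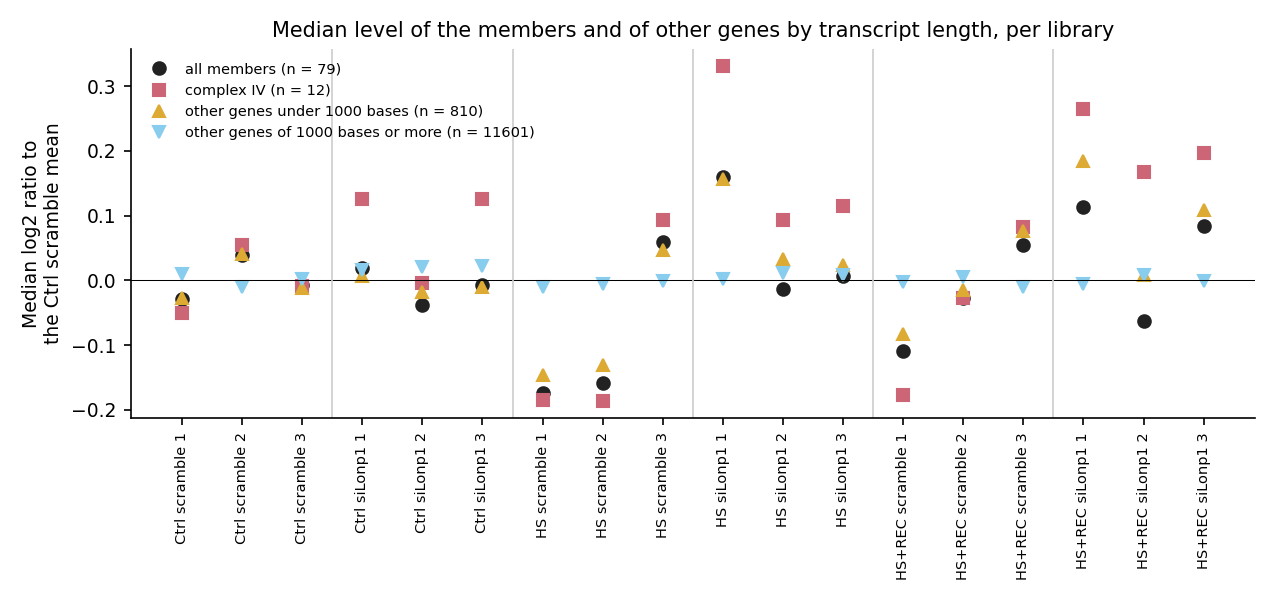
Median log2 ratio to the Ctrl scramble mean (vertical axis) in each of the 18 libraries (horizontal axis) for all members, for complex IV and for other genes by transcript length. The members and the other genes under 1000 bases are low in HS scramble replicates 1 and 2 and high in HS siLonp1 replicate 1, while other genes of 1000 bases or more stay near 0. That last class holds most genes tested, so the scaling itself keeps its median near 0.

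Of the 79 members, 45 have canonical transcripts under 1000 bases, and their median length was 804 bases beside 3255 for all genes tested. For siLonp1 in HS the median change was 0.18 for the 45 short members, 0.12 for the 34 longer members, 0.12 for other genes under 1000 bases and 0.00 for other genes of 1000 bases or more. For the interaction with HS, the same medians were 0.15, 0.14, 0.14 and -0.02. With trends of GC content and length removed, the median of the members was 0.09 for siLonp1 in HS and 0.04 for the interaction with HS. The part of transcript length in these results was otherwise not tested. SDHA and NDUFA5 have canonical transcripts of 2693 and 5496 bases, and ATP5G1 of 646 bases.

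Genes that serve the chain without matching the symbols were counted from hand-written lists. Of 56 assembly factors, 8 rose and 13 fell with siLonp1 in Ctrl, 14 and 13 in HS, and 14 and 13 in HS+REC. Among all genes the shares raised and lowered were 26.3% and 22.9% in Ctrl, 28.1% and 26.7% in HS, and 26.8% and 27.3% in HS+REC, so neither direction stood above its background by more than 1 percentage point. The largest Ctrl changes were those of FOXRED1 and NUBPL, factors of complex I, which fell by 0.70 and 0.51, and SDHAF4, a factor of complex II, which rose by 0.64. HS in scramble cells raised 3 and lowered 17, among them SDHAF1, LYRM7 and COA3, by 0.79, 0.52 and 0.36, where 18.6% of all genes were raised and 17.3% lowered.

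Another list held 14 genes tested: those for making ubiquinone, the cytochrome c gene CYCS, CYC1, the haem-bearing subunit of complex III, and ETFA, ETFB and ETFDH, which pass electrons from fatty acid and amino acid oxidation to ubiquinone. Of these 14, 3 rose and 6 fell with siLonp1 in Ctrl, 4 and 4 in HS, and 4 and 8 in HS+REC. Among all genes, 26.3%, 28.1% and 26.8% were raised and 22.9%, 26.7% and 27.3% lowered, in the same order. The 6 of 14 that fell in Ctrl and the 8 of 14 in HS+REC were above those shares. CYC1 fell by 0.40 and COQ5 by 0.35 in Ctrl, while COQ4 rose by 0.31. ETFB and ETFDH were 2 of the 6 that fell in Ctrl, by 0.23 and 0.24 (adjusted p = 0.0269 and 0.0155), and ETFA rose by 0.26 in HS (adjusted p = 0.00229). Of 17 transcriptional regulators of the chain, 5 rose and 0 fell with siLonp1 in Ctrl, with TFEB, MYC and NRF1 up by 0.61, 0.34 and 0.33. TFEB lay near the filter limit of 1 CPM, with means of 0.981 CPM in Ctrl scramble and 1.5 CPM in Ctrl siLonp1. In HS 3 rose and 3 fell, and in HS+REC 3 rose and 2 fell. Beside these counts stand the shares of all genes given for the assembly factors, such as 26.3% raised in Ctrl, which the 5 of 17 raised are near. HS in scramble cells raised 6 and lowered 2 of these 17 regulators (18.6% and 17.3% of all genes), with KDM5A and PPARA up by 0.47 and 0.41. PPARGC1A, 1 of the 6, rose by 0.97 ± 0.26 (adjusted p = 0.00493) from a mean of only 0.496 CPM in Ctrl scramble. Its mean in Ctrl siLonp1 was 0.481 CPM, so it probably passed the filter of 1 CPM through heated libraries. A filter passed that way favours a rise with heat.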

How the data were processed

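Poly(A) RNA of SW620 cells was sequenced as stranded paired-end libraries. Per the labels and the methods, the authors aligned reads to hg38 with STAR 2.7.3a and used featureCounts in R 3.6.3 to count reads per UCSC gene. The deposited values were raw counts for 26485 symbols and 18 libraries, with no normalization. The strand setting, the handling of reads shared by several genes and the annotation release were not given in the sources used here. Columns of other samples numbered 0.

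Totals were 30815860 to 47279297 counts per library. The 12832 genes exceeding 1 CPM in 3 or more libraries were fitted in 1 edgeR 4.0.16 quasi-likelihood model with TMM factors and a mean per group, under R 4.3.3. In all, 11 contrasts were tested, two-sided, with Benjamini-Hochberg adjustment over all genes tested within each contrast. A call needed an FDR of at most 0.05. Fold changes used a prior count of 0.125, and printed CPM are TMM-scaled. Errors are SE for fold changes and SD over 3 libraries for levels. The fitting scripts were tested on simulated data. Lengths, GC content and gene bounds came from GENCODE v44 canonical transcripts, and promoters from RefSeq (GRCh38.p14). Of the genes tested, 97.3% had a length and GC value, all 79 members among them. Old ATP5 symbols were matched to current names by hand.

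Members, gene lists and tests were chosen with earlier results of these data known. Named members were, for siLonp1 in Ctrl and for HS in each arm, up to 4 per complex with the largest change past the threshold, and for other contrasts up to 3 in each direction. The genes of complex II and of the c subunit were always named for siLonp1 and for HS, and the tissue isoforms of complex IV by their levels. Other members were named after their values were seen, and 1 member that the rule names is not reported here. Alternatives were RLE factors, library size only, no filter, DESeq2 1.42.0, a fit of the compared groups alone, a replicate block, removal of GC content and length trends (splines with 4 degrees of freedom per library) with and without that block, structural subunits only, and each library left out.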

Additional observations from a re-analysis of the deposited data

Results flagged for a closer look

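COX7B was flagged because the siLonp1 effect differed between HS and Ctrl by a test of the difference itself. The interaction was 0.48 ± 0.12 on the log2 scale (adjusted p = 0.0445, edgeR quasi-likelihood test over all genes). SiLonp1 differed from scramble by -0.14 in Ctrl (adjusted p = 0.182) and by 0.34 in HS (adjusted p = 0.00225). With each library left out in turn the interaction ran from 0.40 to 0.56, and the call was lost in 9 of 18 such fits: without Ctrl scramble replicate 2 or 3, any 1 of the Ctrl siLonp1 libraries, replicate 1 or 2 of HS scramble, or replicate 1 or 2 of HS siLonp1. With library size alone the value was 0.46 (adjusted p = 0.0501).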

How the results depend on the processing

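Of 114 values of single members followed through 26 alternatives, 87 were calls, and 50 of these calls stayed past the threshold in every one. A call in the opposite direction arose in 1 case, NDUFB9 for siLonp1 in HS, from 0.00 to -0.0944 with GC content and length trends removed with the replicate block. Counts that moved by more than 1.5 times were as follows, as members raised or lowered. With library size only, siLonp1 gave 3 raised and 18 lowered in Ctrl, 19 and 8 in HS and 11 and 9 in HS+REC, HS in siLonp1 gave 1 and 4, HS+REC gave 0 and 15 in scramble and 6 and 13 in siLonp1, HS+REC against HS gave 0 and 2 in scramble and 5 lowered in siLonp1, and the interaction with HS gave 0. With GC content and length trends removed, siLonp1 gave 25 raised in Ctrl, 12 lowered in HS and 16 lowered in HS+REC, HS gave 2 raised in scramble and 10 lowered in siLonp1, HS+REC gave 4 and 14 in scramble and 7 and 22 in siLonp1, HS+REC against HS gave 2 lowered in scramble and 14 in siLonp1, and the interaction with HS+REC gave 1 and 1. With the replicate block added to that correction, these were the same except 26 raised in Ctrl and 13 and 14 lowered in HS and HS+REC for siLonp1. DESeq2 gave 5 raised by HS in siLonp1 and 1 for the interaction with HS+REC. Without the filter, HS in siLonp1 gave 6 and 1, HS+REC against HS in siLonp1 gave 4 lowered, and the interaction with HS+REC gave 1. With only the groups compared, siLonp1 in Ctrl gave 13 and 18, HS in siLonp1 gave 12 raised, HS+REC in scramble gave 3 raised, and HS+REC against HS gave 0 raised in scramble and 0 lowered in siLonp1. The cause of these shifts was not tested.

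With each library left out in turn, members lowered by HS in scramble ranged from 5 to 24, and those raised and lowered by HS in siLonp1 from 1 to 8 and from 1 to 3. HS+REC raised 0 to 2 and lowered 3 to 6 in scramble, and raised 7 to 14 and lowered 2 to 6 in siLonp1. HS+REC against HS raised 0 to 15 and lowered 0 to 1 in scramble, and raised 1 to 3 and lowered 0 to 6 in siLonp1. SiLonp1 raised 3 to 9 and lowered 4 to 9 in Ctrl, raised 20 to 45 and lowered 4 to 5 in HS, and raised 10 to 28 and lowered 4 to 7 in HS+REC. The interaction with HS ranged from 0 to 6 raised.

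The replicate numbers did not pair the libraries: 10 of 45 same-numbered pairs had correlated deviations above 0.1, with a mean of -0.014, and 6 of 18 libraries correlated best with their own number. The fit with the replicate block gave 33 raised and 4 lowered by siLonp1 in HS, and moved no count by more than 1.5 times. Among the values followed it ended 3 calls, those of NDUFC2 between HS and HS+REC in scramble (adjusted p = 0.0646) and of NDUFB4 and NDUFC1 for siLonp1 in Ctrl (adjusted p = 0.0575 and 0.0529). With 3 libraries per group, the common biological coefficient of variation was 0.066.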
